A study of Mus musculus with 15 samples.

Results

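The genes described here encode the proteins of the cytosolic ribosome, the particle that translates messenger RNA outside the mitochondria. They were chosen by name in the deposited table, as symbols of the forms Rpl or Rps with a number, Rplp0 to Rplp2, and Rpsa, leaving out names that mark pseudogenes. The rule found 83 members among 22526 gene symbols: 33 of the small subunit, 47 of the large subunit, and the 3 proteins of the P-stalk of the large subunit. Expression was measured by bulk RNA sequencing of vessels isolated from the brains of wild-type C57BL/6 mice aged 8 months, in 3 groups of 5 libraries. In the GFP-Veh group, mice had a stereotactic injection of AAV-GFP, an adeno-associated virus carrying green fluorescent protein, and were treated with saline. In the GFP-AL group, mice had AAV-GFP and were treated with angiotensin II (AngII) plus L-NAME, which blocks nitric oxide synthesis, drugs that together raise blood pressure. LH3-AL mice had AAV-LH3, a virus carrying the lysyl hydroxylase LH3 encoded by Plod3, and the same drugs. All 3 groups had a virus injection, and no group analysed here had AAV-LH3 with saline. No label used here names the promoter of either virus or the cells it reaches.

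A ribosome holds each of its proteins about once, apart from the P-stalk proteins P1 and P2, and cells make the proteins in step. Their messenger RNAs commonly begin with a cytosine followed by a run of pyrimidines, the 5' terminal oligopyrimidine (TOP) motif, through which the mTOR pathway adjusts their translation. The genes are short and highly expressed, and mammalian genomes hold many near-identical processed copies of them, so short reads from their coding sequences often match several places.

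The starts of the 7 members that departed from the rest in GFP-AL against GFP-Veh (below) are shown first, because the TOP motif is the feature that ribosomal protein messages are known to share. Each window holds 15 bases before and 15 from the annotated RefSeq start (GRCm38.p6), and capitals mark a run counted from the C nearest that start, within 5 bases of it, that is followed by at least 4 C or T; pyrimidines before that C stay in lower case.
Rplp0, chr5:115559452-115559481, plus strand: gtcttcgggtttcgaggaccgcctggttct
Rps2, chr17:24720048-24720077, plus strand: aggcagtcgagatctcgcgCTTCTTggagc
Rpl27a, chr7:109519180-109519209, plus strand: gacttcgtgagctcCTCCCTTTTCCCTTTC
Rpl15, chr14:18270972-18271001, minus strand: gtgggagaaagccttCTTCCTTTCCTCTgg
Rpl22, chr4:152325711-152325740, plus strand: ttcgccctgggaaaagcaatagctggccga
Rps10, chr17:27635230-27635259, minus strand: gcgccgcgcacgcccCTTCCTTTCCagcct
Rps3a1, chr3:86142654-86142683, minus strand: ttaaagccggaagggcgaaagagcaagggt
Counted from that C, the runs of Rpl27a and Rpl15 were 17 and 13 bases long, and further pyrimidines precede those of Rpl27a, Rpl15 and Rps10. Of the 62 members with a RefSeq start, 29 (46.8%) had such a run, against 23.9% of 9571 other tested genes, 17 of 68 mitochondrial ribosomal protein genes, and 21.2% of all 27025 genes with a start of the same length. The starts used in these vessels were not measured, so a member without a run here may still carry the motif. Among the 7 departing members, runs were present both in genes that lay above the rest (Rps2) and in genes that lay below (Rpl27a, Rpl15 and Rps10). Rpl22 has 2 annotated starts, and the one shown lies nearer to the gene start in GENCODE M21.

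Levels of the members were far from equal. In FPKM, fragments per kilobase of transcript scaled to mapped fragments, the mean over the 15 libraries ran from 0.164 for Rpl3l to 436 for Rpl8, with a median of 23.0. Among the highest were Rpl8 (436), Rpl4 (429), Rps15 (408) and Rplp1 (403), while 31 members were below 10 FPKM and 18 were at 100 or more. Levels were lower where less of a member's coding sequence was found in no other gene. That share was computed over all 75-base words of the coding sequence, compared with every GENCODE M21 transcript. It had a median of 17.3% in the members and 100% over all tested genes. The 23 members with no word of their own had a median of 5.05 FPKM, and 19 of them were below 10 FPKM. The 21 members with at least 50% unique words had a median of 55.1 FPKM, and only Rpl3l and Rpl39l among them were below 10 FPKM. Rpl3l and Rpl39l are paralogues known from striated muscle and testis, and their coding sequences were unique throughout (0.164 and 0.237 FPKM). Over the 82 members with a coding sequence, Spearman's rho between the unique share and the level was 0.45, a description across genes measured in the same libraries.

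**Figure D1:**
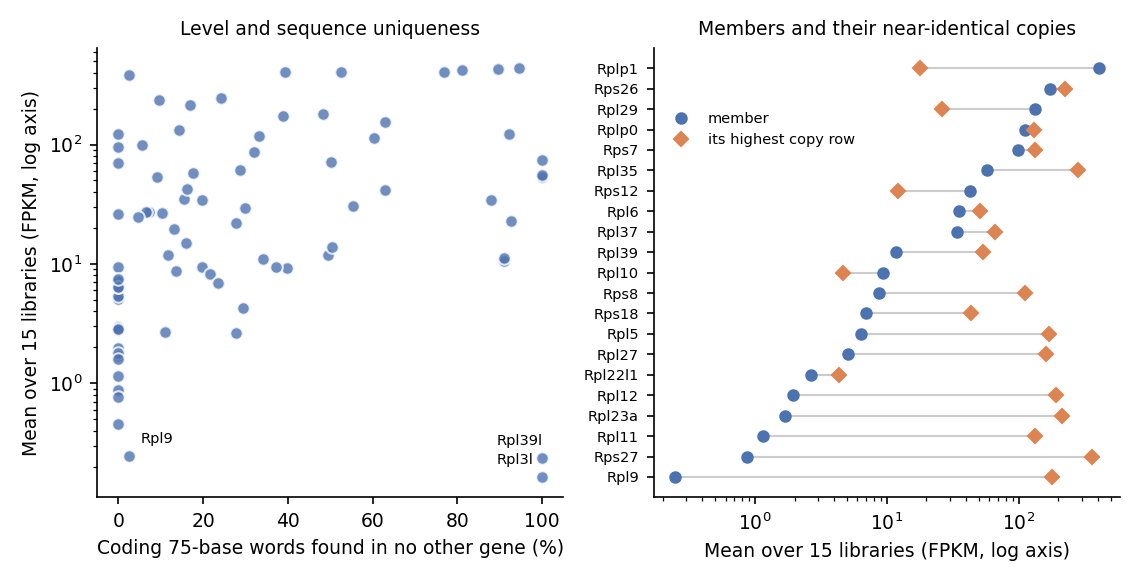
Left, mean level over the 15 libraries (FPKM, log axis) of each of the 82 members with an annotated coding sequence, against the share of its coding 75-base words found in no other gene; members with no unique word reach down to 0.451 FPKM, and Rpl3l and Rpl39l stand at the lower right. Right, each of 21 members (circles) beside the highest of its near-identical copies in the same table (diamonds); 17 members lie below their copy.

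Several essential members had low rows beside high rows of their copies. A copy row was a row of the same table that shares at least 10% of a member's 75-base words and has a mean of at least 1 FPKM. Its gene also had to be typed as a pseudogene or have a symbol of the form Gm with a number, -ps or rt. Genes overlapping the member's own locus were left out, and 25 such rows were found for 21 members. Rps27, a zinc-finger protein of the small subunit, averaged 0.879 FPKM, and its copy Rps27rt averaged 358. Rpl9 averaged 0.247 against 179 for Rpl9-ps6. Rpl23a averaged 1.69 against 215 for Rpl23a-ps3, and Rpl12 averaged 1.96 against 190 for Gm10275. Rpl11 and Rpl5, which bind 5S ribosomal RNA and can inhibit Mdm2, averaged 1.16 and 6.42 FPKM, against 134 for Gm10036 and 170 for Gm15500. With the copies added, the median of the 83 members was 53.1 FPKM in place of 23.0, members below 10 FPKM numbered 21 in place of 31, and rho with the unique share was 0.20. A row of such a member cannot be read as the output of its own locus alone, and its level is uncertain. Exons of 38 members also overlap those of another annotated gene, in 19 cases on the opposite strand, and no source used here says whether counting used strand.

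Of the 83 members, 77 passed the filter of a mean of at least 1 FPKM and were tested. The 6 that did not were Rpl3l, Rpl39l, Rpl9, Rps13, Rps29 and Rps27. Their levels in the table were between 0.164 and 0.879 FPKM. The tested members moved together from library to library: a member's Pearson correlation with the median of the other members over the 15 libraries had a median of 0.93, and 47 of 77 were above 0.9. The family median of each library was expressed as the median difference of the 77 members from their GFP-Veh means, on the log2(FPKM + 1) scale. In GFP-Veh it was -0.11, 0.60, -0.16, -0.03 and -0.29 in replicates 1 to 5. In GFP-AL it was 0.12, 0.58, 0.65, -0.03 and 0.27. In LH3-AL it was -0.19, -0.03, -0.03, -0.06 and -0.05. Thus 3 libraries stood well above the others, GFP-Veh replicate 2 and GFP-AL replicates 2 and 3, and the ranges of GFP-Veh and GFP-AL overlapped. In GFP-Veh replicate 2, 76 of the 77 members lay above their GFP-Veh mean. The 5 LH3-AL libraries lay close together (SD 0.07, against 0.35 in GFP-Veh and 0.29 in GFP-AL).

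Other quantities moved with the family median, and their part in it was not tested. Among other tested genes, the 1225 with the longest transcripts (6427 bases or more) had medians of -0.27, -0.34 and -0.40 in those 3 libraries and between -0.13 and 0.12 in the other 12. The 1225 with the shortest transcripts (up to 1232 bases) had medians of 0.40, 0.22 and 0.13 there and between -0.17 and 0.00 elsewhere. The members' own transcripts had a median length of 846.5 bases, against 3003 for other genes. The sum of FPKM was also highest in these 3 libraries, at 313548 to 317866 against 277839 to 299149. Members made up 1.55 to 2.95% of all FPKM. Estimated depth differed by group: in M fragments it was 13.6 to 16 in GFP-Veh replicates 1 to 4, below every library of the other groups, 29.8 in GFP-Veh replicate 5, 21.3 to 27.8 in GFP-AL and 18.1 to 31.6 in LH3-AL. With log2 depth in the fit, the members' median change in GFP-AL against GFP-Veh was 0.48 in place of 0.30. Marker genes for endothelium, smooth muscle and pericytes were all detected (12 of 12, 8 of 8 and 8 of 8 tested), and no marker of any list was under 0.1 FPKM in every library. The labels do not say whether each library came from its own mouse, so p-values measure only the spread between these libraries.

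**Figure D2:**
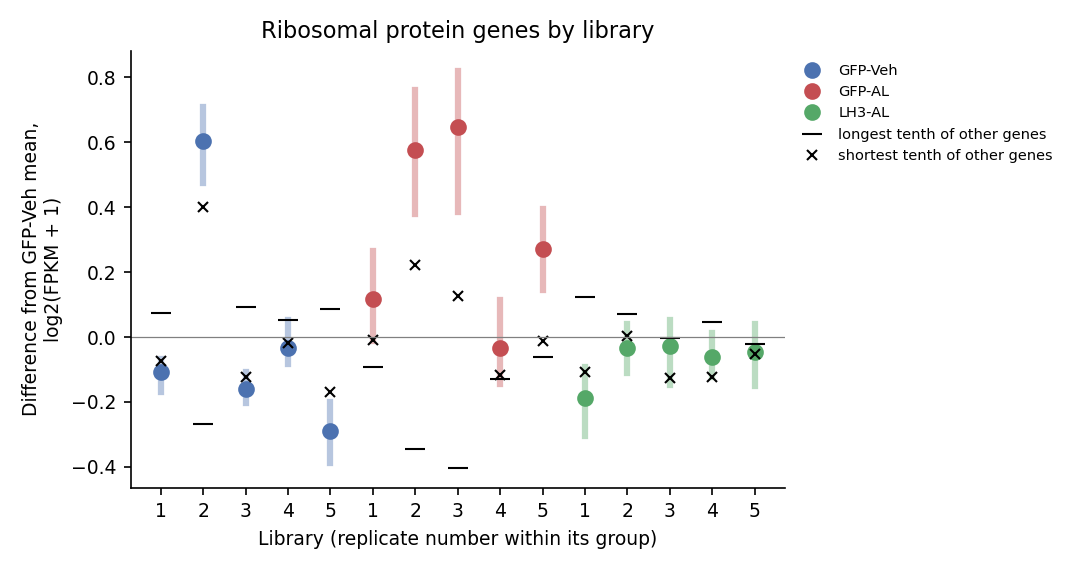
Median difference of the 77 tested members from their GFP-Veh mean in each library (circles; bars, first to last quartile of the members), on the log2(FPKM + 1) scale, beside the medians of the 1225 shortest (crosses) and 1225 longest (dashes) other genes by transcript length. GFP-Veh replicate 2 and GFP-AL replicates 2 and 3 lie at 0.58 to 0.65, and the longest genes lie lowest in the same 3 libraries.

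The first comparison asked what AngII plus L-NAME did to these genes in mice given AAV-GFP. The members' median log2 fold change was 0.30, beside -0.09 over all 13082 genes tested, and 72 of 77 were above 0. By limma, 11 members rose (14.3%), beside 10.8% of all genes tested, and 2 fell, beside 17.7%. In this fit the share that rose was near that of all genes, and the share that fell was below it. Of the 11 that rose, 3 belong to the small subunit (Rps2 and Rps28 among them), 7 to the large subunit (Rpl36, Rpl23, Rpl29, Rpl24, Rpl10a, Rpl10 and Rpl12) and 1 to the P-stalk (Rplp0). The 2 that fell were Rpl27a and Rpl15, both of the large subunit. The number that rose rests on single libraries, and so does its relation to the share of all genes. Without GFP-Veh replicate 2 it was 52 (67.5%), beside 13.6% of all genes. It was 4 (5.19%), beside 10.5%, without GFP-AL replicate 2, and 3 of 77, beside 8.49 to 9.49%, without GFP-AL replicate 3 or without GFP-Veh replicate 1, 3, 4 or 5. Leaving out all 3 libraries of high family median gave 28 (36.4%), beside 11.6%, and a median change of 0.26; a fit of these 2 groups alone gave 3 of 77, beside 8.39%. Median-of-ratios scaling gave 21 members higher (27.3%), beside 14.1%; over all genes it gave 1843 higher and 1712 lower, in place of 1416 and 2321.

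The second comparison, LH3-AL against GFP-AL, concerns the virus under the same drugs and uses the same GFP-AL libraries as the first. The members' median was -0.41, beside 0.08 over all genes tested, and 70 of 77 were below 0. By limma 20 members fell (26.0%), beside 11.4% of all genes, and 1 rose (1.30%), beside 17.0%. Members that fell were 5 of the small subunit (Rps2, Rps18, Rps20 and Rps28 among them), 13 of the large subunit, and Rplp0 and Rplp2 of the P-stalk; the member that rose was Rpl27a. All 5 LH3-AL libraries lay below all 5 GFP-AL libraries in 27 of the 77 members (35.1%), beside 8.45% of all genes. The number that fell also rests on single libraries. It was 8 (10.4%), beside 9.64% of all genes, without GFP-AL replicate 2, and 8 (10.4%), beside 8.90%, without LH3-AL replicate 1. It was 10 (13.0%), beside 9.56%, without GFP-AL replicate 3, 13 (16.9%), beside 10.7%, without GFP-AL replicate 5, and 10 to 12 (13.0 to 15.6%), beside 8.48 to 9.50%, without LH3-AL replicate 2, 3 or 4. Other fits gave more: 26 (33.8%), beside 11.4%, without GFP-AL replicate 1, and 30 (39.0%), beside 11.8%, without GFP-AL replicate 4. Without LH3-AL replicate 5 the number was 15 (19.5%), beside 10.4%. A fit of these 2 groups alone gave 30 (39.0%), beside 10.1%. Leaving out the 3 libraries of high family median gave 15 (19.5%), beside 9.79%, and a median change of -0.22. With median-of-ratios scaling 31 fell (40.3%), beside 14.5%; over all genes that scaling gave 1784 higher and 1895 lower, in place of 2227 and 1496.

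In the third comparison, LH3-AL against GFP-Veh, no member was called by limma, beside 0.520% of all genes (0.145% higher and 0.375% lower), and none was called by voom on estimated reads. In FPKM no member's groups were free of overlap here, beside 2.06% of all genes higher and 2.61% lower without overlap. At an unadjusted p below 0.05 there was 1 member, Rpl7l1 (-0.27 ± 0.12, SE). Differences ran from -0.30 ± 0.15 for Rpl27 to 0.23 ± 0.20 for Rpl17, with a median of -0.09, beside -0.01 over all genes; without GFP-Veh replicate 2 the median was 0.06. Each of the 3 comparisons shares libraries with the other two.

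**Figure D3:**
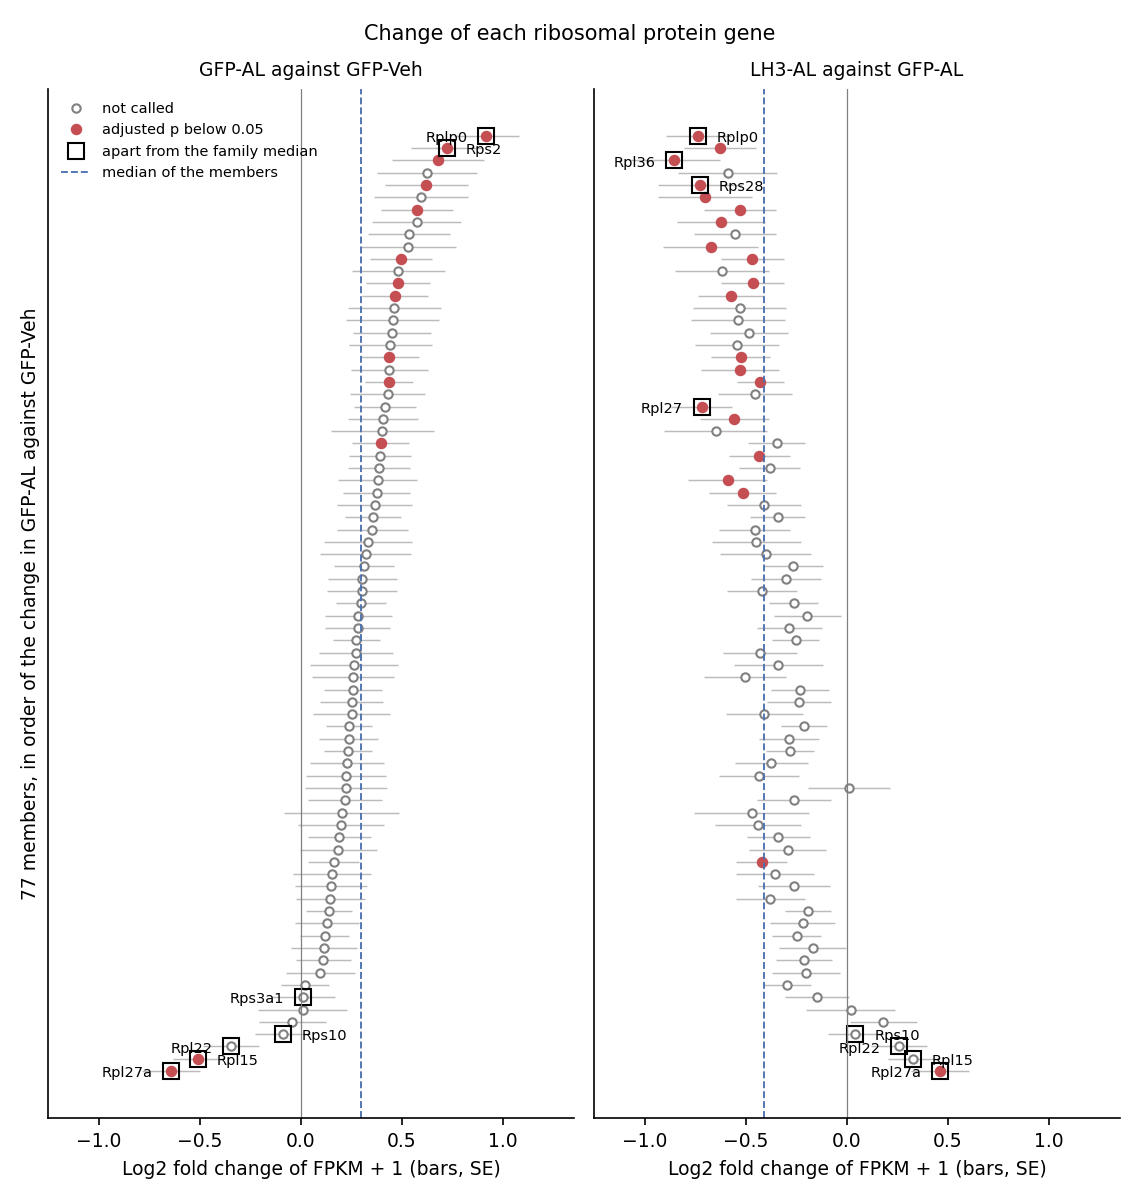
Log2 fold change of FPKM + 1 of each of the 77 tested members (points; bars, SE) in GFP-AL against GFP-Veh and LH3-AL against GFP-AL, which share the GFP-AL libraries. Members are in the order of the first comparison in both panels, filled points passed adjusted p below 0.05, squares mark members called apart from the family median, and dashed lines mark the medians of 0.30 and -0.41.

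Members that depart from the family were sought with the same fit after the median of the 77 members in each library had been subtracted from every gene. A call in this fit, named "apart" below, says that a gene moved differently from the typical member, and its size is a difference from the family median. The subtraction centres the members near 0 by construction. It put the median of all genes at -0.39 in the first comparison and 0.44 in the second. The shares of all genes given beside these counts therefore cannot show whether members depart more or less often than other genes. In GFP-AL against GFP-Veh, 7 members were apart, beside 35.2% of all genes: 2 above the family, beside 4.08%, and 5 below (6.49%), beside 31.1%. For LH3-AL against GFP-AL the count was 8, beside 45.4% of all genes: 4 above (5.19%), beside 41.8%, and 4 below (5.19%), beside 3.54%. In the third comparison none was apart, beside 0.176% of all genes (0.0535% above and 0.122% below). Even so, Rplp0 stood at 1.770 to 2.228 against the family median in LH3-AL and at 1.668 to 1.766 in GFP-Veh. Rps2 stood at 0.026 to 0.152 and -0.208 to -0.006, so neither overlapped on that scale. The share of all genes without overlap on that scale was not computed. The 7 became 13 (16.9%) without GFP-Veh replicate 2, where 62.9% of all genes were apart. The 8 became 5 (6.49%) without GFP-AL replicate 2 or LH3-AL replicate 2 or 3, beside 27.8 to 38.3% of all genes, and 4 (5.19%) without LH3-AL replicate 1, beside 25.9%.

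Rplp0 encodes P0, the scaffold on which the P1 and P2 dimers of the stalk sit, and it is often used as a reference gene in quantitative PCR. It lies on chromosome 5 (ENSMUSG00000067274, 115559467 to 115563727, plus strand, GRCm38). Its level was 74.1, 120, 75, 83.0 and 68.7 FPKM in GFP-Veh replicates 1 to 5. In GFP-AL it was 142, 199, 194, 125 and 139, and in LH3-AL 84.5, 87.5, 96.9, 91.5 and 111. All 5 GFP-AL libraries lay above every library of both other groups, including GFP-Veh replicate 2. Among the tested members it alone did not overlap between GFP-AL and GFP-Veh (1.30%), beside 6.59% of all genes higher without overlap. It rose by 0.92 ± 0.16 (SE; limma adjusted p = 0.000814) in GFP-AL against GFP-Veh and fell by 0.73 ± 0.16 (adjusted p = 0.00440) in LH3-AL against GFP-AL. Against the family median the differences were 0.62 ± 0.10 (adjusted p = 0.000718) and -0.38 ± 0.10 (adjusted p = 0.0129). The first held in all 22 alternative settings, and the second in 19 of 22, being lost with quantile normalization, voom and a higher filter (largest adjusted p = 0.285). The partners of P0 were not apart: Rplp1 and Rplp2 differed from the family by 0.11 ± 0.15 and 0.24 ± 0.14 (adjusted p = 0.550 and 0.184) in GFP-AL against GFP-Veh.

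The processed copy of Rplp0 moved with it. Gm8730 (chromosome 8, 102864845 to 102865798, minus strand, GRCm38), a processed pseudogene that shares 19.6% of the 75-base words of Rplp0, was at 79.7 to 142 FPKM over the GFP-Veh libraries, 140 to 238 over GFP-AL and 99.7 to 119 over LH3-AL. It rose by 0.87 ± 0.17 (SE; limma adjusted p = 0.00172) and fell by 0.75 ± 0.17 (adjusted p = 0.00517) in the first and second comparisons. Whether fragments in the 2 rows come from 1 or both loci cannot be told from these values; with members and copy rows summed, Rplp0 was still called apart in both comparisons.

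Rps2, a small subunit protein near the messenger RNA channel, was apart above the family with Rplp0. Its level was 19.5, 34.5, 20.6, 23.2 and 19.2 FPKM in GFP-Veh. In GFP-AL it was 28.6, 44.9, 55.7, 31.4 and 36.7, and in LH3-AL 21.4, 25.7, 26.6, 25.3 and 23.6. GFP-AL overlapped GFP-Veh only through GFP-Veh replicate 2, and lay above all of LH3-AL. It rose by 0.72 ± 0.18 (SE; limma adjusted p = 0.00736), which was 0.43 ± 0.11 above the family median (adjusted p = 0.0113), a call lost only with a filter of 5 FPKM (adjusted p = 0.0888). In LH3-AL against GFP-AL it fell by 0.63 ± 0.18 (adjusted p = 0.0178) and was not apart from the family (-0.27 ± 0.11, adjusted p = 0.0622). Rps2 shares words with 49 other annotated genes, and 29.9% of its coding words are unique.

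Rpl27a, Rpl15 and Rpl22 went against the family. They are large subunit proteins; Rpl22 is not essential for translation in mouse and is known for a role in T cell development. Rpl27a (chromosome 7, 109519147 to 109522367, plus strand) was at 6.39, 8.45, 5.84, 6.20 and 5.96 FPKM in GFP-Veh. In GFP-AL it was at 4.03, 5.99, 2.82, 3.27 and 3.51, and in LH3-AL at 4.97, 5.44, 6.34, 5.90 and 5.57. Only GFP-AL replicate 2 reached the levels of the other groups. It fell by 0.64 ± 0.14 (SE; limma adjusted p = 0.00385) in GFP-AL against GFP-Veh and was higher by 0.46 ± 0.14 (adjusted p = 0.0257) in LH3-AL against GFP-AL, a call lost without GFP-AL replicate 3 or 4, without LH3-AL replicate 3 or 4, and with quantile normalization (largest adjusted p = 0.0651). Its differences from the family median were -0.94 ± 0.15 (adjusted p = 0.000653) and 0.82 ± 0.15 (adjusted p = 0.00231). Both departures held in all 22 settings.

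Rpl15 (chromosome 14, 18267823 to 18271391, minus strand) was at 8.51, 10.3, 8.25, 8.43 and 6.72 FPKM in GFP-Veh. In GFP-AL it was at 5.22, 7.63, 4.21, 6.01 and 5.37, and in LH3-AL at 6.62, 7.27, 7.5, 8.10 and 6.99. GFP-AL overlapped the other groups only through its replicate 2, and GFP-Veh and LH3-AL overlapped each other. It fell by 0.51 ± 0.13 (SE; limma adjusted p = 0.00762) in GFP-AL against GFP-Veh, a call lost with log2 depth as a covariate (adjusted p = 0.0721). In LH3-AL against GFP-AL the difference was 0.33 ± 0.13 (adjusted p = 0.0622). Its differences from the family median were -0.80 ± 0.15 (adjusted p = 0.00192) and 0.69 ± 0.15 (adjusted p = 0.00522), and both held in all 22 settings. Rpl15 shares 105 exonic bases with Nkiras1 on the opposite strand, and Nkiras1 itself fell by 0.38 ± 0.10 (limma adjusted p = 0.0102) in GFP-AL against GFP-Veh.

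Rpl22 (chromosome 4, 152325742 to 152334071, plus strand) was at 10.3, 16.2, 11.1, 11.7 and 9.46 FPKM in GFP-Veh. In GFP-AL it was at 9.32, 9.90, 9.89, 9.87 and 6.03, and in LH3-AL at 10.2, 10.7, 10.3, 11.7 and 11.2. Every LH3-AL library lay above every GFP-AL library, the only tested member of which that was true (1.30%), beside 11.0% of all genes. In neither of these comparisons did Rpl22 itself pass the test (-0.35 ± 0.14, limma adjusted p = 0.0767, and 0.26 ± 0.14, adjusted p = 0.175). Against the family median it differed by -0.64 ± 0.14 (adjusted p = 0.00442) and 0.62 ± 0.14 (adjusted p = 0.00589), in all 22 settings. In GFP-Veh replicate 2, where the family median was high, Rpl22 was at 16.2 FPKM, the highest of its 15 values, while in GFP-AL replicates 2 and 3, with a similar family median, it was at 9.90 and 9.89.

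These 3 genes also had the lowest correlations with the other members together with Rpl23a and Rpl17: -0.22 for Rpl23a, -0.17 for Rpl15, -0.16 for Rpl27a, 0.03 for Rpl17 and 0.09 for Rpl22. Transcripts of Rpl22, Rpl15 and Rpl27a (2051, 1922 and 1158 bases) were longer than the members' median of 846.5, and that of Rpl23a (560) was shorter. Over the 77 members, Spearman's rho between transcript length and the change in GFP-AL against GFP-Veh was -0.15. The part of length in these departures was not tested. Rpl22, Rpl27a and Rpl15 differ in how reads can be placed on them. Coding words of Rpl22 were 91.0% unique, while Rpl27a and Rpl15 had no unique coding word. Of their whole transcripts 65.6% and 70.7% of words were unique, so what is unique in Rpl27a and Rpl15 lies outside the coding sequence. Rpl23a and Rpl17, of low levels (1.69 and 6.08 FPKM) and with no unique coding word, were not apart in any comparison; Rpl23a differed from the family by 0.54 ± 0.22 (limma adjusted p = 0.0549) in LH3-AL against GFP-AL.

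**Figure D4:**
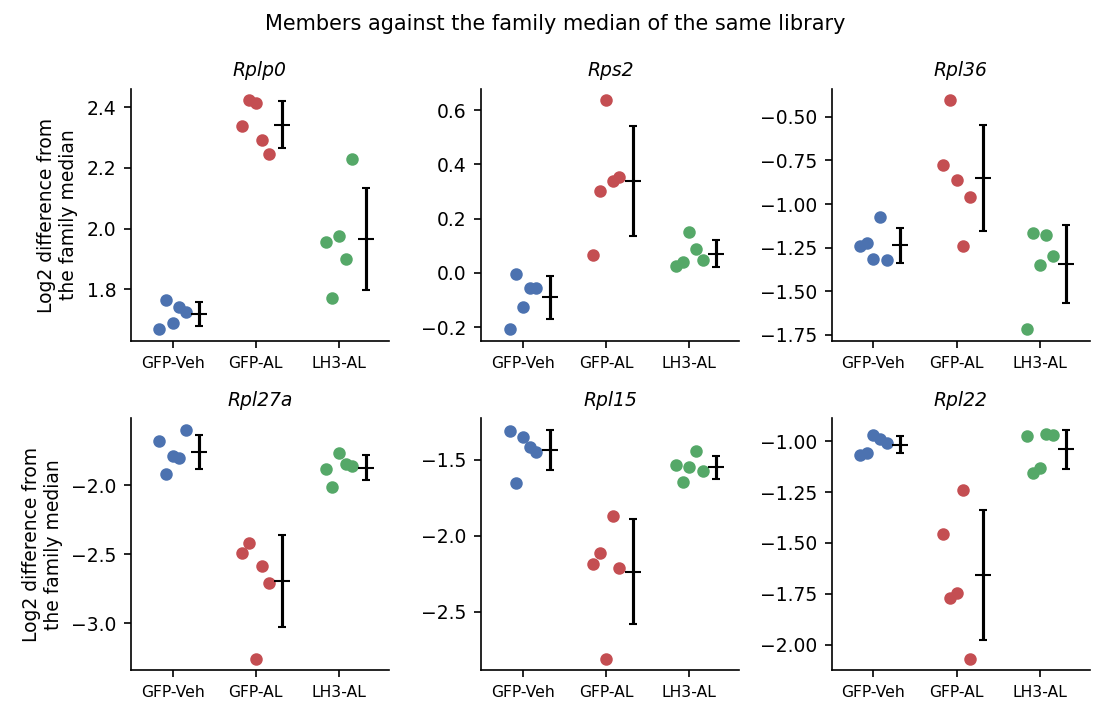
Level of 6 members in each library as a log2 difference from the family median of the same library (points; black bar, mean ± SD of 5 libraries). Rplp0 in GFP-AL lies above all other libraries, and Rpl27a, Rpl15 and Rpl22 in GFP-AL lie below all of them.

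The remaining departures were smaller and depended on the settings. Rps10, a small subunit protein beside the messenger RNA entry site, was at 2.26 to 3.52 FPKM in GFP-Veh, 1.70 to 3.69 in GFP-AL and 2.36 to 3.08 in LH3-AL. It was apart below the family in GFP-AL against GFP-Veh (-0.38 ± 0.14, limma adjusted p = 0.0453), in 6 of 21 settings. In LH3-AL against GFP-AL it was apart above the family (0.40 ± 0.14, adjusted p = 0.0325), in 15 of 21. Without the subtraction Rps10 differed by only -0.09 ± 0.14 and 0.04 ± 0.14 (limma adjusted p = 0.647 and 0.833). After it, the median of all genes was -0.39 and 0.44, close to Rps10. These 2 calls therefore say that Rps10 did not share the family's shift, not that its own level moved. Rps3a1, of the small subunit, had a level of 257 ± 77.7, 253 ± 38.5 and 227 ± 10.7 FPKM (SD, n = 5), in the same order of groups. In the first comparison it was apart below the family (-0.28 ± 0.10, adjusted p = 0.0419), in 8 of 22 settings. Without the subtraction Rps3a1 differed there by 0.01 ± 0.16 (limma adjusted p = 0.972), so its own level was not seen to move. The second comparison had 3 members besides Rplp0 that were apart below the family. Rpl36, of the large subunit, averaged 10.0 ± 2.71, 17.1 ± 6.47 and 8.73 ± 1.87 FPKM in the 3 groups and had the largest fall of any member (-0.85 ± 0.23, adjusted p = 0.0129), which was -0.49 ± 0.15 against the family (adjusted p = 0.0204), in 16 of 22 settings. Rps28, of the small subunit, averaged 6.37 ± 2.10, 10.5 ± 3.81 and 5.67 ± 0.351 FPKM and was apart by -0.37 ± 0.14 (adjusted p = 0.0462), in 7 of 22. Rps28 shares 88 exonic bases with Kank3 on the opposite strand; Kank3 averaged 90.2 FPKM and was not called. Rpl27, of the large subunit, averaged 4.81 ± 1.32, 6.69 ± 1.41 and 3.65 ± 0.613 FPKM and was apart by -0.36 ± 0.14 (adjusted p = 0.0455), in 8 of 22. With members and copy rows summed, Rpl36, Rps28, Rpl27, Rps10 and Rps3a1 were no longer apart, while Rplp0, Rpl27a, Rpl15 and Rpl22 were. Among these genes only Rpl27 and Rplp0 have a copy row. For the others that setting changed the subtracted family median, the shared spread and the adjustment, not their own values. It therefore cannot show whether copies matter to their calls.

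Paralogues with a name of their own were compared with the member they resemble. Rpl22l1, which can replace Rpl22 in the ribosome, averaged 2.59 ± 0.606 (SD, n = 5 in each group), 2.96 ± 1.10 and 2.43 ± 0.272 FPKM over GFP-Veh, GFP-AL and LH3-AL and was not apart from the family (-0.18 ± 0.14, SE; limma adjusted p = 0.304, in GFP-AL against GFP-Veh), unlike Rpl22 in the same fit; the difference between the pair was not tested. Rps27l, a p53-responsive paralogue of Rps27, averaged 10.2 ± 4.91, 14.0 ± 4.32 and 9.06 ± 0.516 FPKM and correlated with the other members at 0.97. Rpl7l1, known from ribosome assembly, followed the family less closely than Rpl7 (0.55 and 0.84). It averaged 24.3 ± 3.03, 24.9 ± 4.75 and 19.8 ± 1.04 FPKM and passed in no comparison. Rps4l, annotated as a transcribed processed pseudogene, averaged 21.6 FPKM over all libraries against 118 for Rps4x. Rpl36al, which lies outside the name rule, rose by 0.56 ± 0.20 (adjusted p = 0.0452) in GFP-AL against GFP-Veh and fell by 0.75 ± 0.20 (adjusted p = 0.0125) in LH3-AL against GFP-AL; the values for Rpl36a, at 1.79 FPKM, were 0.12 ± 0.12 and -0.25 ± 0.12 (adjusted p = 0.495 and 0.136). Rpl39 averaged 11.8 FPKM against 0.237 for Rpl39l, and Rpl3 averaged 27.1 against 0.164 for Rpl3l.

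Members with a second function or a fused domain were also followed. Rpsa, also known as a laminin receptor, averaged 217 ± 58.4, 281 ± 50.8 and 213 ± 10.1 FPKM in the 3 groups and passed in no comparison (0.38 ± 0.15, limma adjusted p = 0.0714, in GFP-AL against GFP-Veh). Rpl5 and Rpl11 passed in none either, with 0.14 ± 0.11 and 0.24 ± 0.11 in that comparison (adjusted p = 0.378 and 0.130). Rps27a, made as a fusion with ubiquitin, differed by 0.26 ± 0.14 (adjusted p = 0.189). Outside the name rule, Fau, made as a fusion with a ubiquitin-like domain, fell by 0.65 ± 0.23 (adjusted p = 0.0446) in LH3-AL against GFP-AL. Of the most abundant members, Rpl8 fell by 0.53 ± 0.19 (adjusted p = 0.0497) in that comparison, a call lost in 12 of 22 settings. Rpl4, Rps15 and Rplp1 passed in no comparison.

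Genes outside the family that tracked its median over the 15 libraries were, by Pearson's r, Gm2000 (0.98, the copy of Rpl35), Rpl39-ps (0.98), Ndufa6 (0.98), Uqcrq (0.98), Gm9843 (0.98), Tomm22 (0.98), Gm5428 (0.97, a copy of Rpl6), Wdr89 (0.97), Rpl37rt (0.97) and Gnb2l1 (0.97). Ndufa6 and Uqcrq are subunits of respiratory complexes I and III, Tomm22 is a receptor for import into mitochondria, and Gnb2l1 encodes RACK1, a scaffold on the small subunit. Plod3, the gene carried by AAV-LH3, averaged 16.8 ± 0.621 FPKM (SD, n = 5 in each group) under GFP-Veh, 13.9 ± 1.09 under GFP-AL and 21.6 ± 1.46 under LH3-AL, where all 5 libraries lay above the rest, and its r with the family was -0.48.

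Other genes of the translation apparatus were counted by list, beside 10.8% of all genes higher and 17.7% lower in the first comparison and 17.0% and 11.4% in the second. Of 19 further TOP messages, 5 rose and 1 fell in GFP-AL against GFP-Veh, with a median of 0.17; among them Pabpc1, which binds poly(A) tails, rose by 0.74 ± 0.15 (SE; limma adjusted p = 0.00193) and Eef1a1, which brings transfer RNA to the ribosome, by 0.50 ± 0.11 (adjusted p = 0.00404). Then 4 of the 19 fell and none rose in LH3-AL against GFP-AL, with a median of -0.19. Of 28 initiation factors 9 rose and 2 fell in the first comparison (median 0.18), and 1 rose and 14 fell in the second (median -0.31). Eif1a, which helps the small subunit find the start codon, rose by 0.93 ± 0.11 (adjusted p = 4.8e-05) and fell by 0.98 ± 0.11 (adjusted p = 6.9e-05). Of 36 tested ribosome biogenesis genes 2 rose and 2 fell (median 0.03), then 2 rose and 11 fell (median -0.25), with Gnl3, nucleostemin, at -0.73 ± 0.12 (adjusted p = 0.000798) in the second. Of 23 tested genes that control ribosomal protein synthesis 2 rose and 2 fell (median -0.09), then 3 rose and 3 fell (median 0.05). Eif4ebp1, a brake on cap-dependent initiation, rose by 1.76 ± 0.29 (adjusted p = 0.000522) and fell by 1.34 ± 0.29 (adjusted p = 0.00397). Ddit4, an inhibitor of mTOR complex 1, rose by 1.18 ± 0.31 (adjusted p = 0.00966) and fell by 1.65 ± 0.31 (adjusted p = 0.00150). Tsc2 went the other way, at -0.37 ± 0.09 (limma adjusted p = 0.00791) and 0.38 ± 0.09 (adjusted p = 0.00790). So did Mycn in the first comparison (-0.51 ± 0.16, adjusted p = 0.0237) and Eef2k in the second (0.40 ± 0.13, adjusted p = 0.0290).

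Lists of mitochondrial and nucleolar genes had medians nearer 0 than the ribosomal proteins, beside the same shares of all genes. Of 76 tested mitochondrial ribosomal protein genes, 1 rose and 6 fell in GFP-AL against GFP-Veh (median 0.04) and 1 rose and 5 fell in LH3-AL against GFP-AL (median -0.15). Of 81 tested nuclear subunits of oxidative phosphorylation, 1 rose and 5 fell (median 0.06), then 3 rose and 4 fell (median -0.15). Of 18 tested genes of RNA polymerase I, none rose and 3 fell in the first comparison (median -0.04), and 1 rose and none fell in the second (median -0.13). Of 10 tested snoRNA host genes 1, Snhg3, rose and then fell (medians 0.23 and -0.25). In LH3-AL against GFP-Veh none of these lists had a called gene.

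Markers of microglia, macrophages and neutrophils moved with the same groups. In bulk samples, fewer cells of a type and less RNA per cell cannot be told apart. The marker counts below stand beside 10.8% of all genes higher and 17.7% lower in the first comparison, and 17.0% and 11.4% in the second. Of 13 markers of microglia and macrophages, 9 rose in GFP-AL against GFP-Veh and 10 fell in LH3-AL against GFP-AL; their summed level was 259 to 605 FPKM in GFP-Veh, 794 to 1344 in GFP-AL and 352 to 417 in LH3-AL. Of 7 tested neutrophil markers, 5 rose and then 7 fell, with sums of 77.3 to 218, 110 to 922 and 37.0 to 61.9 FPKM. Of 8 lymphocyte markers only 1, Cd79a, was tested. It was called lower in the first comparison (-0.73) and was not called in the second (0.47). Lymphocyte sums were 5.44 to 14.2, 5.04 to 7.80 and 4.37 to 8.61 FPKM. All 7 red cell markers rose in GFP-AL against GFP-Veh (1471 to 3864 FPKM in GFP-Veh and 3874 to 19348 in GFP-AL), and none was called in LH3-AL against GFP-AL (4774 to 10139 in LH3-AL); 3 of the 7 were higher in LH3-AL than in GFP-Veh. Of 8 oligodendrocyte markers, 5 fell and then 3 rose, with sums of 678 to 1017, 339 to 888 and 482 to 1052 FPKM. Of 10 markers of choroid plexus and ependyma, 8 fell and then 6 rose (3679 to 9194, 1979 to 3110 and 3173 to 5260 FPKM), so these markers were present although the labels say that choroid plexus was removed. Of 12 endothelial markers, 5 rose and 4 fell, then 2 rose and 4 fell. Of 8 pericyte markers, 2 fell and then 2 rose (1328 to 1664, 784 to 1318 and 1249 to 1582 FPKM). Of 8 smooth muscle markers, 2 fell and then 1 rose. The part of these cells in the members' values was not tested.

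The authors' deposited tables of differential genes held 1 member, Rps27. In the authors' deposited table for GFP-AL against GFP-Veh its log2 fold change was 1.10 (q-value 0.0108). The other of the authors' deposited tables is named for LH3-AL against GFP-Veh and gives -1.0 (q-value 0.0166). The signs of all 995 matched genes of that table were those of the present LH3-AL against GFP-AL fit, and 56.2% were those of LH3-AL against GFP-Veh. Rps27 was at 0.444 to 0.748 FPKM in GFP-Veh, 0.864 to 2.21 in GFP-AL and 0.482 to 0.842 in LH3-AL, below the filter used here. Its copy Rps27rt, at 358 FPKM, differed by 0.34 (limma adjusted p = 0.271) and -0.54 (adjusted p = 0.0860) in the first and second comparisons, and was not called.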

How the data were processed

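RNA from 15 vessel preparations was sequenced; per the submitters' processing notes, STAR 2.5.1b and build mm8 were used, and no source used here gives the counting step, strand or annotation. The authors deposited FPKM values for 22557 genes, per the file headers. Of the values, 5.99% are below 0 (lowest -0.465), which FPKM cannot be. The column may therefore be another kind of expression score made by the authors. Of the values below 0, 92.8% lay just under it. Values below 0 were set to 0, and the column was otherwise used as FPKM, including for estimated depth and reads. The authors also deposited log2 fold changes with p-values and q-values for 2 contrasts, per the file headers; their test is not stated.

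Rows sharing a symbol (31 symbols) were summed, and 22400 identifiers matched GENCODE M21 (GRCm38). The main test was limma 3.58.1 (R 4.3.3) with an intensity trend on log2(FPKM + 1), over all 15 libraries and the 13082 genes whose mean reached 1 FPKM, with Benjamini-Hochberg adjustment within a comparison and a threshold of 0.05; fold changes on this scale understate those of low genes. The fit was repeated after subtracting each library's median over the 77 tested members. Both were run on simulated data in which only genes outside the family changed and no shift was shared within a library. That run therefore cannot show how well members apart from the family are found. Depth was estimated from the step size of low values, of which 45.8 to 65.2% a library came out within 0.1 of whole reads, too few for a count test. Sequence words of 75 bases were compared over all GENCODE M21 transcripts. Starts were those of RefSeq (GRCm38.p6), and Python 3.11.15 was used.

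The members, lists and tests were chosen with earlier results of these data known. Named were, per comparison, the 4 highest and 4 lowest called members, up to 6 apart from the family on each side, fixed paralogue pairs, P-stalk and dual-function members, the 5 most abundant, the 5 least correlated, the 10 most similar other genes, Plod3, and called genes of the lists by p. Some of the genes this rule names are not reported here. Gm8730, Rps27rt, Nkiras1, Kank3 and the other copies were named after their values were seen. Alternatives tried were no filter, a filter of 5 FPKM, a pseudocount of 0.1, median-of-ratios and quantile scaling, the 2 groups alone, depth as a covariate, voom, separate rows, a replicate block, and leaving out each library; 2 were added after seeing the data, leaving out 3 libraries and summing members with copies.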

Additional observations from a re-analysis of the deposited data

Results flagged for a closer look

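Within a group of 5, a library was set apart where its gap to the next value exceeded 0.71 of the group's range on the log2 scale. Of 99 groups examined 16 passed; chance gives about 1 in 20, and the members share libraries, so the flags are not independent. GFP-Veh replicate 2 was the highest GFP-Veh library for the family median (0.714), and for Rpl10 (0.857), Rpl27a (0.761), Rpl4 (0.863), Rpl7 (0.755), Rpl8 (0.879), Rplp2 (0.750), Rps15 (0.787), Rps3a1 (0.795), Rps4x (0.741) and Rpsa (0.871). LH3-AL replicate 1 was the lowest of its group for the family median (0.782) and for Rpl10 (0.789), and LH3-AL replicate 5 the highest for Rpl7 (0.714). In GFP-AL, replicate 5 was the lowest for Rpl22 (0.875) and replicate 2 the highest for Rpl27 (0.821).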

How the results depend on the processing

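The family medians kept their direction in GFP-AL against GFP-Veh and LH3-AL against GFP-AL under all settings run, with ranges of 0.23 to 0.48 and -0.48 to -0.22. In LH3-AL against GFP-Veh the median moved from -0.09 to 0.06 without GFP-Veh replicate 2, and to 0.08 with log2 depth in the fit, and no setting called a member. Members called in GFP-AL against GFP-Veh numbered 13 (16.9%), beside 28.6% of all genes. They numbered 23 (29.9%) with median-of-ratios scaling, beside 27.2%, and 5 (6.49%) in a fit of the 2 groups, beside 20.9%. Without the 3 libraries of high family median they numbered 30 (39.0%), beside 26.2%. Leaving out 1 library gave 5 to 54 (6.49 to 70.1%), beside 21.7 to 33.9%. In LH3-AL against GFP-AL they numbered 21 (27.3%), beside 28.5% of all genes, and 32 (41.6%) with median-of-ratios scaling, beside 28.1%. A fit of the 2 groups gave 31 (40.3%), beside 23.7%. Leaving out 1 library gave 9 to 30 (11.7 to 39.0%), beside 20.3 to 30.1%. Members apart from the family in GFP-AL against GFP-Veh numbered 7 (9.09%), beside 35.2% of all genes. The subtraction centres members near 0 and shifts all genes, so these shares of members and of all genes cannot be weighed against each other. Leaving out 1 library gave 5 to 13 (6.49 to 16.9%), beside 18.9 to 62.9%. In LH3-AL against GFP-AL, members apart numbered 8 (10.4%), beside 45.4% of all genes. They numbered 4 (6.06%) with a filter of 5 FPKM, beside 52.0%, and 4 (5.06%) with copy rows summed, beside 32.2%. Leaving out 1 library gave 4 to 11 (5.19 to 14.3%), beside 25.9 to 52.4%. The cause was not tested. Same-numbered libraries correlated at -0.26 to 0.29, which cannot settle whether the replicate numbers pair the libraries. With the replicate block 18 members (23.4%) were called in GFP-AL against GFP-Veh, beside 28.9% of all genes. In LH3-AL against GFP-AL that fit called 31 (40.3%), beside 29.7%. Counts of calls rest on 5 libraries a group whose spread is shared over the 3 groups.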
